A study of Mus musculus with 23 samples.

Results

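Dendritic cells take up antigen in the lung, carry it to lymph nodes and present it to T cells. Their conventional type 1 subset (cDC1) takes up dead cells and primes CD8 T cells, and their conventional type 2 subset (cDC2) is known for priming CD4 T cells, including the type 2 responses of allergic airway disease (AAD). Ccl17 and Ccl22 encode chemokines that mature dendritic cells and macrophages secrete and that attract type 2 T cells through the shared receptor CCR4. Described here are 10 genes of these cells, chosen by symbol: Ccl17, Ccl22, Flt3, Batf3, Zbtb46, Xcr1, Clec9a, Itgae, Cd209a and Ccr7. All 10 were found among the 35322 genes of the table, and all 10 were among the 16795 genes tested.

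Lung RNA was sequenced from 13-week-old offspring of the Balb/c strain, 1 library per animal. Sham offspring (n = 7) were born to saline-exposed dams and PM offspring (n = 7) to dams exposed to fine particulate matter (PM2.5), and both received saline instead of allergen. Sham-OVA (n = 5) and PM-OVA (n = 4) offspring had the same maternal exposures and were sensitised with ovalbumin (OVA) and alum and challenged with aerosolised OVA. The labels name the control challenge as PBS and the tissue with the abbreviation RML, whereas the study's methods give nebulised saline and the right lower lobe, describe the offspring as female, and place lung collection after methacholine lung function tests. The groups therefore compare OVA with control at a given maternal exposure, and maternal exposure with or without OVA. Nothing in the labels ties an animal to a dam, so littermates within a group cannot be told apart from unrelated animals.

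Levels are in RPM: reads were scaled to library size but not to gene length. Reads on genes ranged from 13089691 to 17393579 in the 14 saline libraries, from 2298645 to 12185451 in Sham-OVA and from 4324326 to 12355561 in PM-OVA. PM-OVA replicates 3 and 4 and Sham-OVA replicate 3 had under 6000000 reads, and 1 read was worth up to 0.311 RPM there, compared with at most 0.0688 RPM in the saline libraries. Sham replicate 1 stood apart in another way: it had 54.0 RPM of the Y-linked gene Eif2s3y, which was at 0 RPM in the other 22 libraries. That library had the lowest level of the Sham group for 7 of the 10 genes (Ccl22, Flt3, Batf3, Xcr1, Clec9a, Itgae and Ccr7), and results are given with and without it and the 3 shallow libraries where a call or direction depends on them. In bulk lung RNA, fewer cells of a type and less RNA per cell cannot be told apart. The median log2 fold change of all genes tested was -0.48 in Sham and -0.43 in PM offspring, and differences are also given relative to these medians.

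The chemokine genes are shown first by the sequence next to their starts, since they lie close together and moved together. Both are on the forward strand of chromosome 8 (GRCm38), Ccl22 at chr8:94745590-94751699 and Ccl17 at chr8:94810453-94812036. They are separated by 58753 bases that also hold Cx3cl1, which encodes another chemokine, and a processed pseudogene. The 250 bases before the start of each gene in RefSeq (GRCm38.p6) were searched on both strands for a STAT-type motif, TTC and GAA separated by 3 bases (TTCNNNGAA) or 4 bases (TTCNNNNGAA), and for an NF-kB-type motif, GGGA and CC separated by 4 bases (GGGANNNNCC). STAT6 is the factor activated by interleukin-4 and interleukin-13, and NF-kB is activated by many inflammatory receptors. Capitals mark the matches.
Ccl17, chr8:94810203-94810452, forward strand: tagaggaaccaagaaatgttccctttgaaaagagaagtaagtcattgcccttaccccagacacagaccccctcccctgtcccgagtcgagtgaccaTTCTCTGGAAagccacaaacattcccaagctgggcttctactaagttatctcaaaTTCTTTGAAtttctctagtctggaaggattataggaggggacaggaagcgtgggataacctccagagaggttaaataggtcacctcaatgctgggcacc
Ccl22, chr8:94745434-94745683, forward strand: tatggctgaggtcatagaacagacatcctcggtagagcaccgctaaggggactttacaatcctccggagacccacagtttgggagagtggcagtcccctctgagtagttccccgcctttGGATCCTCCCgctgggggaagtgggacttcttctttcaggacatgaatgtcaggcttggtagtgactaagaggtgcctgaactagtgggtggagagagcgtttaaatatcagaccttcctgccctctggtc
The Ccl17 window held a STAT-type match with 4 bases between (TTCTCTGGAA, 154 to 145 bases before the start) and one with 3 bases between (TTCTTTGAA, 99 to 91 bases before it), and no NF-kB-type match. The Ccl22 window held 1 NF-kB-type match (GGATCCTCCC, 131 to 122 bases before the start) and no STAT-type match. Of 32851 RefSeq promoter windows of this length, 5.85% held the STAT-type motif with 4 bases between, 7.02% that with 3 bases between, and 17.6% the NF-kB-type motif. These are matches of letters and show no binding. For Ccl22, the GENCODE start falls inside the printed window.

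Ccl17, Ccl22, Flt3, Batf3 and Xcr1 were higher with OVA than without it in both the Sham and the PM cohort. Clec9a and Zbtb46 were lower in Sham offspring, and Itgae, Cd209a and Ccr7 passed the test in neither cohort. In Sham-OVA against Sham, 7 of the 10 genes were called at a Benjamini-Hochberg adjusted p under 0.05 with limma, 5 higher and 2 lower. Among all genes tested, 68.1% were called, 20.6% higher and 47.5% lower, so the share of the 10 genes that was called was near the background and the share that was higher was above it. The 10 genes were chosen with earlier results of these data known, so these shares are given as a description. In PM-OVA against PM, 5 of the 10 were called, all higher, compared with 65.3% of all genes called, 20.1% higher and 45.2% lower. The median log2 fold change of the 10 genes was 0.73 in Sham and 0.75 in PM offspring, and 8 of the 10 lay above the all-gene median in each. Relative to that median the differences in Sham and PM offspring were 4.59 and 4.08 for Batf3, 2.32 and 2.35 for Flt3, 1.57 and 1.476 for Xcr1, 0.86 and 0.87 for Itgae, 0.51 and 0.23 for Cd209a, and 0.45 and 0.34 for Ccr7. The other 4 genes are given in this way with their values. At the stricter threshold of the study (adjusted p under 0.000001 and absolute log2 fold change above 1), 1 of the 10 was called in Sham (Batf3; 4.51% of all genes) and 0 in PM offspring (0.286% of all genes). OVA and saline libraries did not overlap for 4 of the 10 genes in Sham and 5 in PM offspring, compared with 48.1% and 41.9% of all genes. The share of calls that were higher depended on the scaling: of all called genes in Sham offspring 30.2% were higher and 69.8% lower on RPM, but 43.4% and 56.6% with median-of-ratios scaling, 48.5% and 51.5% with quantile normalisation and 49.6% and 50.4% with edgeR. In PM offspring 30.8% were higher and 69.2% lower on RPM, and 50.1% and 49.9% with edgeR. Of the 10 genes, those scalings left the same 5 higher and added Itgae in both cohorts, while quantile normalisation and edgeR also called Cd209a higher in Sham offspring.

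**Figure D1:**
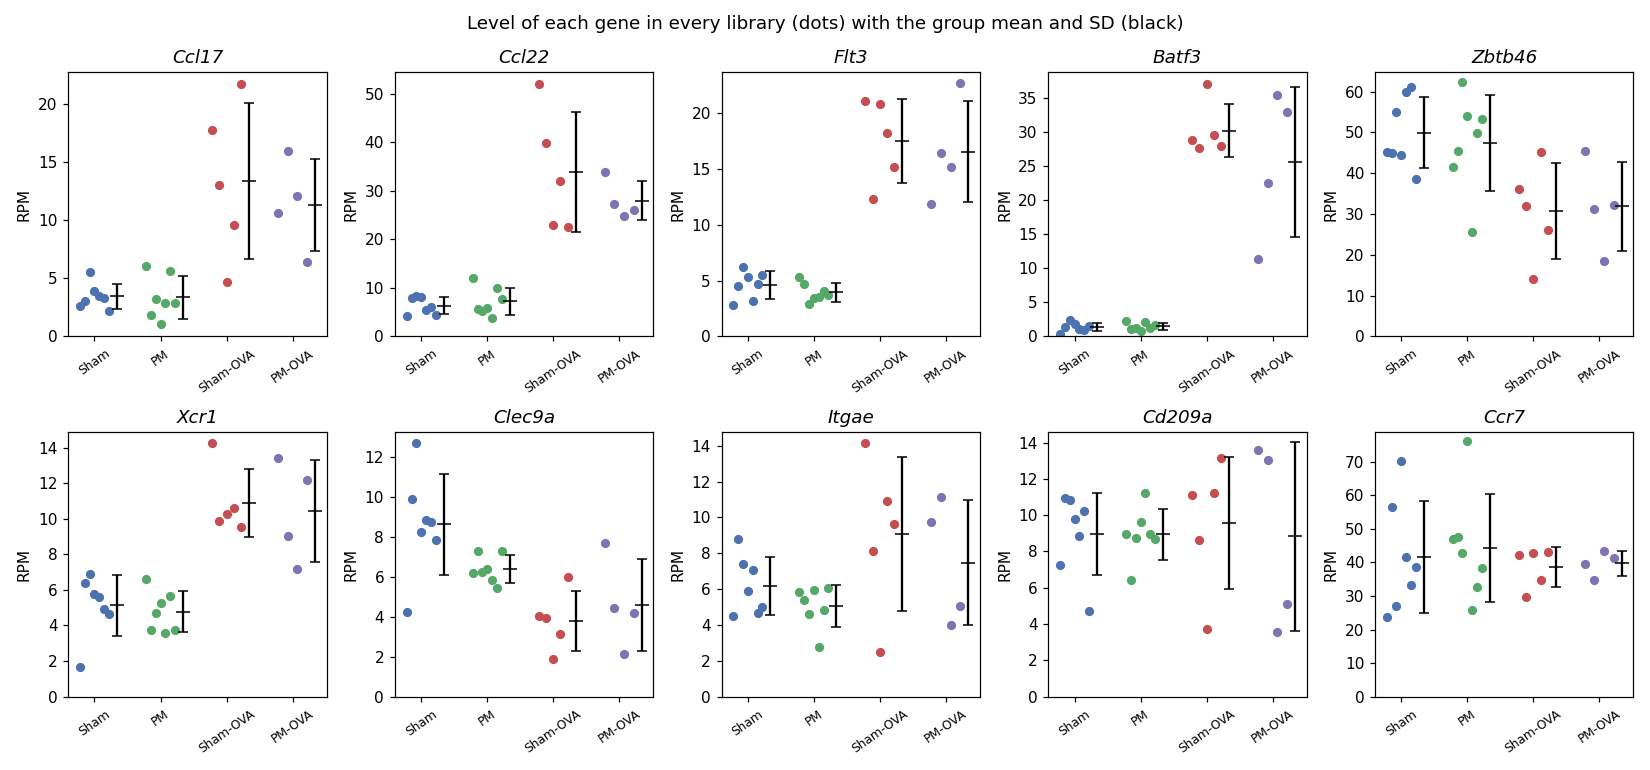
RPM (vertical axis, from 0) of the 10 genes in each library (dots) of the Sham, PM, Sham-OVA and PM-OVA groups, with the group mean and SD in black. Ccl22, Flt3, Batf3 and Xcr1 show no overlap between OVA and saline libraries in either cohort, and Ccr7 overlaps throughout.

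Ccl17 and Ccl22 rose together. Ccl17, which encodes the chemokine TARC, lay between 2.21 and 5.50 RPM in Sham (median 3.31) and between 1.05 and 6.05 in PM (median 2.90). After OVA challenge it was at 17.7, 13.0, 4.66, 9.56 and 21.7 RPM in Sham-OVA replicates 1 to 5, and at 10.6, 15.9, 12.1 and 6.35 RPM in PM-OVA replicates 1 to 4. Of the Sham-OVA libraries 4 of 5, and all 4 PM-OVA libraries, lay above every saline library of their cohort, and the exception was the shallow Sham-OVA replicate 3, with 15 reads. The log2 fold change was 1.69 ± 0.32 (SE) in Sham (adjusted p = 3.16e-04) and 1.68 ± 0.38 in PM offspring (adjusted p = 0.00203). Ccl22, which encodes the chemokine MDC, lay between 4.16 and 8.22 RPM in Sham (median 5.98) and between 3.81 and 12.0 in PM (median 5.86). Its values were 52.1, 39.8, 22.99, 31.9 and 22.6 RPM in the Sham-OVA libraries and 33.9, 27.3, 24.8 and 26.0 RPM in the PM-OVA libraries. Every OVA library was above every saline library. The log2 fold change was 2.31 ± 0.25 in Sham (adjusted p = 2.10e-06) and 1.96 ± 0.27 in PM offspring (adjusted p = 1.10e-04). Relative to the all-gene median, Ccl17 was higher by 2.17 and 2.11 and Ccl22 by 2.79 and 2.39 in Sham and PM offspring.

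The balance between the chemokine transcripts varied from animal to animal. Within a library the ratio of Ccl22 to Ccl17, which does not depend on library scaling, lay between 1.495 and 2.63 in Sham (median 1.81) and between 1.33 and 5.56 in PM (median 1.98). It ranged from 1.04 to 4.93 in Sham-OVA (median 3.06) and from 1.71 to 4.09 in PM-OVA (median 2.62), so the groups overlapped. Per kilobase of exon, mean Ccl17 was above mean Ccl22 in each group, at 6.66 against 2.72 RPM per kb in Sham and 25.9 against 14.6 RPM per kb in Sham-OVA. Across the 23 libraries, the levels of the chemokine genes, each centred on its own mean of log2(RPM + 0.5), differed by a root mean square of 0.556, while each alone had an SD of 1.01 and 1.13. Closest to Ccl17 by this measure were Abcc6, a transporter gene (0.417), and Spns3, a gene of the Spinster transporter family (0.428). Closest to Ccl22 were Ebi3, a cytokine subunit gene (0.366), and H2-Aa, which encodes an MHC class II chain (0.374). H2-Aa ranged from 132 to 322 RPM in the saline libraries and from 677 to 1319 RPM in the OVA libraries. All 23 libraries share the OVA contrast, so genes that moved with OVA are near each other by this measure.

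**Figure D2:**
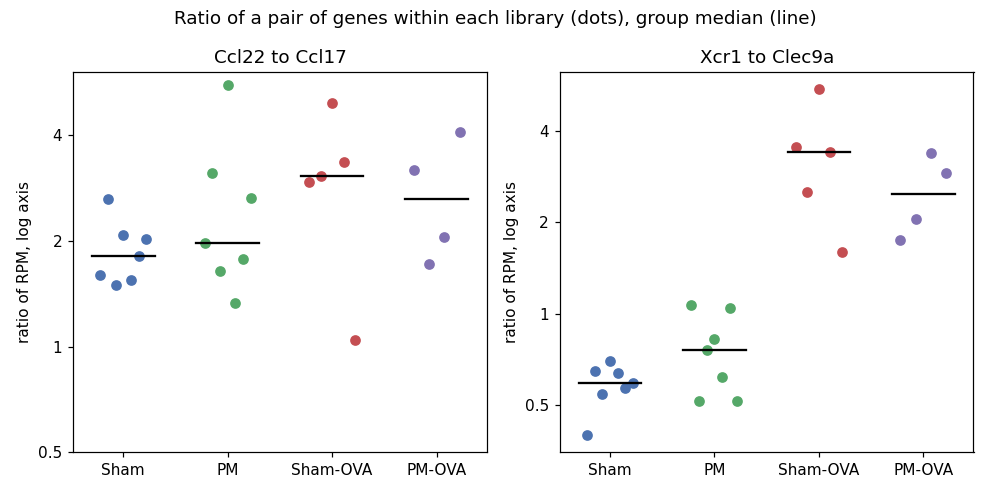
Ratio of Ccl22 to Ccl17 and of Xcr1 to Clec9a in each library (dots; log axis), with the group median as a line. The Ccl22 to Ccl17 ratios overlap between groups, whereas the Xcr1 to Clec9a ratio is at most 1.07 in the saline libraries and at least 1.598 in the OVA libraries.

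The receptors and partners of the chemokines did not move with them. Ccr4, the receptor gene shared by both, had a mean of 1.12 RPM in Sham and 0.590 RPM in Sham-OVA. Its log2 fold change of -0.49, near the all-gene median of -0.48, did not pass the test (adjusted p = 0.142). In PM offspring it was at 1.37 RPM without and 0.819 RPM with OVA (log2 fold change -0.99, adjusted p = 0.0565). PM-OVA libraries ranged from 0 to 2.89 RPM for this gene, so its level is known poorly. Ccr8, another receptor gene of type 2 T cells, fell by 0.95 on the log2 scale in Sham offspring (adjusted p = 0.0321), and its log2 fold change in PM offspring was -1.05 (adjusted p = 0.0545). Ackr2, which encodes a scavenger receptor for inflammatory chemokines including CCL17 and CCL22, fell from 127.9 to 23.8 RPM in Sham (log2 fold change -2.56, adjusted p = 7.43e-06) and from 119 to 32.2 RPM in PM offspring (-2.42, adjusted p = 0.00298). Cx3cl1, which lies between the chemokine genes, was named for its position and fell in Sham offspring, from a mean of 81.6 to 39.3 RPM (log2 fold change -1.08, adjusted p = 6.89e-04), while its log2 fold change in PM offspring was -0.51 (adjusted p = 0.147). It therefore had the opposite sign to its neighbours on the chromosome.

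Flt3 encodes the receptor tyrosine kinase through which FLT3 ligand maintains dendritic cells and their progenitors. It lies on the reverse strand of chromosome 5 (147330741 to 147400489). Its level lay between 2.83 and 6.19 RPM in Sham (median 4.65) and between 2.86 and 5.30 in PM (median 3.70). The Sham-OVA libraries had 21.1, 12.3, 20.8, 18.2 and 15.2 RPM and the PM-OVA libraries 11.9, 16.4, 15.1 and 22.7 RPM. No OVA library overlapped a saline library, and the shallow libraries lay within the range of the others or above it. The log2 fold change was 1.84 ± 0.22 in Sham (adjusted p = 5.94e-06) and 1.93 ± 0.21 in PM offspring (adjusted p = 3.17e-05). Flt3l, the gene of its ligand, had means of 41.9 RPM in Sham and 39.5 RPM in Sham-OVA, and of 32.6 RPM in PM and 38.3 RPM in PM-OVA. Its log2 fold changes of -0.09 and 0.24 did not pass the test (adjusted p = 0.725 and 0.184).

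Batf3 encodes a transcription factor needed for cDC1 development and had the largest log2 fold change of the 10 genes in both cohorts. It lies on the forward strand of chromosome 1 (191097847 to 191108945). In saline libraries its level was low, at 0.404 to 2.37 RPM in Sham (median 1.39; 7 to 41 reads) and 0.790 to 2.20 RPM in PM (median 1.25; 12 to 36 reads). Sham-OVA replicates had 28.8, 27.6, 37.0, 29.6 and 27.9 RPM, and PM-OVA replicates had 11.3, 22.5, 35.5 and 32.9 RPM. The lowest OVA library, PM-OVA replicate 1, thus stood above the highest saline library, and PM-OVA varied more than Sham-OVA (SD 10.99 against 3.88 RPM). On the log2 scale the fold change was 4.11 ± 0.26 in Sham (adjusted p = 1.90e-08) and 3.65 ± 0.31 in PM offspring (adjusted p = 4.99e-06). Batf3 is also transcribed in activated T cells and macrophages, and some genes of those cells rose after OVA while others fell. Of 12 T cell genes, 4 rose and 3 fell in Sham and 3 rose and 4 fell in PM offspring, with Gata3 and Cd4 the highest in Sham (log2 fold changes 2.04 and 1.66). Of 12 macrophage and monocyte genes, 7 rose and 2 fell in Sham and 7 rose and 3 fell in PM offspring, with Arg1 and Chil3 the highest in Sham (4.85 and 4.74). Their part in the Batf3 difference was not tested. Irf8, whose product pairs with BATF3 in cDC1, had means of 84.0 and 72.2 RPM in Sham and Sham-OVA and of 82.8 and 70.0 RPM in PM and PM-OVA. Its log2 fold changes of -0.31 and -0.33 did not pass the test (adjusted p = 0.316 and 0.221). Irf4, a factor of cDC2, plasma cells and activated lymphocytes whose product can pair with BATF proteins, rose from a mean of 7.95 to 170.0 RPM in Sham (log2 fold change 4.32, adjusted p = 1.66e-09) and from 8.69 to 135 RPM in PM offspring (3.75, adjusted p = 7.85e-06).

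Zbtb46 encodes a transcription factor of conventional dendritic cells that is also present in endothelial cells. It lies on the reverse strand of chromosome 2 (181387762 to 181459426). Its level lay between 38.6 and 61.0 RPM in Sham (median 45.2) and between 25.5 and 62.4 in PM (median 49.8). The Sham-OVA libraries had 36.2, 32.0, 14.0, 45.3 and 26.1 RPM, 4 of them below every Sham library, and the PM-OVA libraries had 45.4, 31.3, 18.4 and 32.3 RPM, with only replicate 3 below every PM library. It fell by 0.77 ± 0.24 on the log2 scale in Sham offspring (adjusted p = 0.01002). In PM offspring the log2 fold change was -0.59 ± 0.26 (adjusted p = 0.0592). These values are -0.29 and -0.16 relative to the all-gene median, and the call in Sham was lost with edgeR (-0.28, adjusted p = 0.153) and DESeq2 (-0.37, adjusted p = 0.0590). In PM offspring it passed the test without PM-OVA replicate 1 (-0.78, adjusted p = 0.0139) or without PM replicate 5 (-0.73, adjusted p = 0.0121), but was -0.36 without PM-OVA replicate 3 (adjusted p = 0.226) and -0.28 without both shallow PM-OVA libraries (adjusted p = 0.399). Of 8 endothelial genes, 4 fell and 1 rose in each cohort, near the shares of all genes tested (47.5% lower and 20.6% higher in Sham, 45.2% and 20.1% in PM offspring). The median of this list was -0.33 in Sham and -0.30 in PM offspring, beside -0.48 and -0.43 for all genes. The summed level of the 8 genes went from a median of 4852 RPM in Sham (range 2662 to 5924) to 3464 RPM in Sham-OVA (2995 to 3801), and from 5402 RPM in PM (1742 to 5576) to 3577 RPM in PM-OVA (3249 to 4069). The endothelial genes Tek and Cdh5 fell by 2.15 and 1.49 on the log2 scale in Sham offspring, while Emcn rose by 1.13 and Cldn5 had a log2 fold change of 0.44 (adjusted p = 0.0793). The part of endothelial cells in the Zbtb46 difference was not tested.

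**Figure D3:**
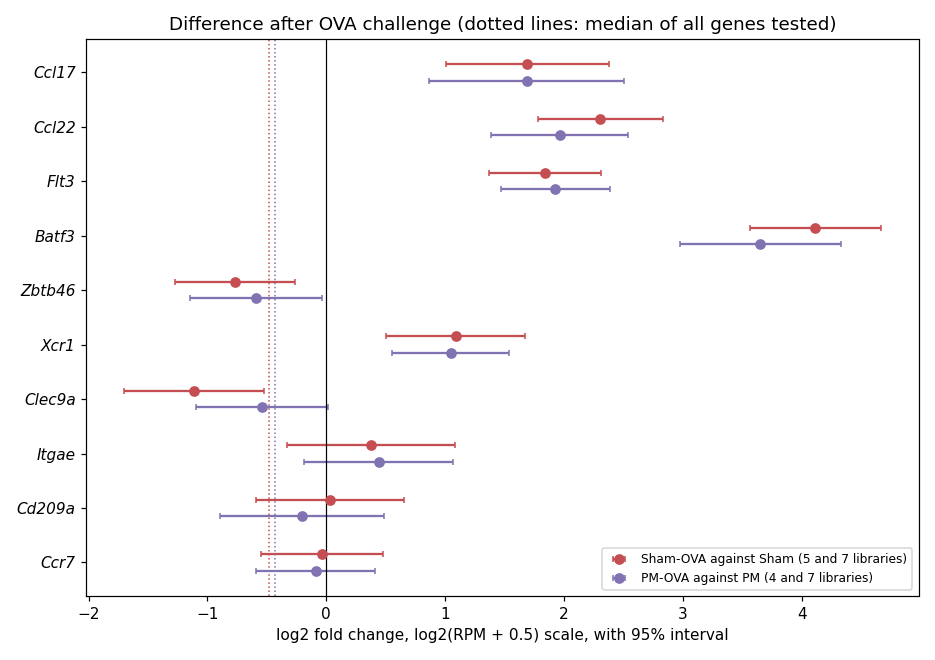
Log2 fold change on the log2(RPM + 0.5) scale (horizontal axis, points with 95% intervals) of the 10 genes for Sham-OVA against Sham (red) and PM-OVA against PM (purple), with the medians of all genes tested, -0.48 and -0.43, as dotted lines. Batf3 lies farthest to the right, followed in both cohorts by Ccl22, Flt3, Ccl17 and Xcr1 in that order, and the intervals of the cohorts overlap for every gene.

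The cDC1 receptor genes Xcr1 and Clec9a moved in opposite directions. Xcr1, on the reverse strand of chromosome 9 (123852315 to 123862029), encodes the receptor for the chemokine XCL1 and is restricted to cDC1. It lay between 1.67 and 6.89 RPM in Sham (median 5.63) and between 3.58 and 6.60 in PM (median 4.72). Its values were 14.2, 9.86, 10.2, 10.6 and 9.57 RPM in Sham-OVA and 13.4, 9.04, 7.17 and 12.2 RPM in PM-OVA, with no overlap between OVA and saline libraries. Its log2 fold change was 1.09 ± 0.27 in Sham (adjusted p = 0.00265) and 1.05 ± 0.23 in PM offspring (adjusted p = 0.00163). Xcl1, the gene of its ligand, was at most 1.20 RPM in any library and its log2 fold changes of 0.30 and -0.02 did not pass the test (adjusted p = 0.406 and 0.942). Clec9a, on the forward strand of chromosome 6 (129408862 to 129424763), encodes a receptor for actin exposed by dead cells. It lay between 4.21 and 12.7 RPM in Sham (median 8.72) and between 5.44 and 7.28 in PM (median 6.23). Sham-OVA replicates had 4.03, 3.91, 1.86, 3.11 and 5.99 RPM and PM-OVA replicates 7.66, 4.41, 2.12 and 4.18 RPM. Of the 5 Sham-OVA libraries 4 lay below every Sham library, while in PM-OVA 3 libraries lay below every PM library and replicate 1 lay above all of them. Clec9a fell by 1.11 ± 0.28 on the log2 scale in Sham offspring (adjusted p = 0.00244). In PM offspring the log2 fold change was -0.54 ± 0.26 (adjusted p = 0.0791), and it depended on single libraries. It was -0.80 without PM-OVA replicate 1 (adjusted p = 0.00489), -0.26 without PM-OVA replicate 3 (adjusted p = 0.300) and -0.11 without both shallow PM-OVA libraries (adjusted p = 0.661). Relative to the all-gene median these differences were -0.63 in Sham and -0.11 in PM offspring. The interaction term, which tests whether the OVA effect differed between the cohorts, was 0.57 (95% interval -0.22 to 1.37).

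Because both genes are read in the same library, their ratio is free of scaling. The ratio of Xcr1 to Clec9a lay between 0.397 and 0.700 in Sham (median 0.590) and between 0.514 and 1.07 in PM (median 0.758). After OVA challenge it ranged from 1.598 to 5.50 in Sham-OVA (median 3.41) and from 1.75 to 3.38 in PM-OVA (median 2.48). The highest ratios of both OVA groups were those of the shallow libraries. Clec9a rested on 6 reads in Sham-OVA replicate 3 and on 16 and 23 reads in PM-OVA replicates 3 and 4. Every OVA library was above every saline library. This ratio was chosen after the directions of its genes were known, so it is given as a description. The lowest ratio, 0.397, was that of Sham replicate 1, which had Y-linked transcripts. Clec9a shares 184 exon bases, 5.59% of its exon length, with the neighbouring gene Clec1b on the same strand, and Clec1b had means of 4.02, 4.99, 4.64 and 4.25 RPM in Sham, PM, Sham-OVA and PM-OVA. Reads in the shared bases cannot be assigned to one of the pair. Genes closest to Xcr1 over the 23 libraries were Naaa, a lysosomal hydrolase gene that is abundant in cDC1 (root mean square difference 0.275), and Nkain4 (0.305).

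Itgae, Cd209a and Ccr7 passed the test in neither cohort. Itgae encodes CD103, the integrin chain of cDC1 and of tissue-resident T cells, and lies on the forward strand of chromosome 11 (73090583 to 73147446). It lay between 4.503 and 8.80 RPM in Sham (median 5.90) and between 2.76 and 6.09 in PM (median 5.37), with 14.2, 8.12, 2.49, 10.9 and 9.64 RPM in Sham-OVA and 9.74, 11.1, 3.98 and 5.08 RPM in PM-OVA. The values of the 3 shallow libraries, 2.49, 3.98 and 5.08 RPM, rested on 8, 30 and 28 reads and were the lowest of their groups. Its log2 fold change was 0.38 ± 0.33 in Sham (95% interval -0.33 to 1.08, adjusted p = 0.326) and 0.44 ± 0.29 in PM offspring (-0.18 to 1.07, adjusted p = 0.193). Without the 3 shallow libraries and Sham replicate 1 it was 0.69 (adjusted p = 0.00652) and 1.01 (adjusted p = 0.00642), and edgeR called it higher as well (0.98 and 0.90, adjusted p = 0.00165 and 0.00664). Without Sham-OVA replicate 3 alone it was 0.75 in Sham offspring (adjusted p = 0.00323). Itgb7, whose product pairs with CD103, rose by 0.86 and 0.67 on the log2 scale (adjusted p = 0.00171 and 0.00491), and Cdh1, the gene of their ligand E-cadherin, had log2 fold changes of 0.01 and 0.18 (adjusted p = 0.928 and 0.359).

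Cd209a encodes a C-type lectin of cDC2 and monocyte-derived dendritic cells and lies on the reverse strand of chromosome 8 (3743397 to 3748984). It lay between 4.72 and 10.9 RPM in Sham (median 9.77) and between 6.44 and 11.2 in PM (median 8.94). The Sham-OVA libraries had 11.1, 8.65, 3.73, 11.2 and 13.2 RPM and the PM-OVA libraries 13.6, 13.1, 3.58 and 5.08 RPM. As for Itgae, the lowest values of the OVA groups were those of the 3 shallow libraries, with 12, 27 and 28 reads. The fitted log2 fold change was 0.03 ± 0.29 in Sham (95% interval -0.59 to 0.65, adjusted p = 0.929) and -0.20 ± 0.32 in PM offspring (-0.89 to 0.49, adjusted p = 0.591). Without the shallow libraries it turned to 0.56 in PM offspring (adjusted p = 0.0221), with 2 PM-OVA libraries left, while array weights gave a call in the opposite direction (-0.76, adjusted p = 0.0276). In Sham offspring, edgeR gave 0.54 (adjusted p = 0.0384). Its paralogue Cd209d rose from a mean of 0.549 to 9.07 RPM in Sham (log2 fold change 2.99, adjusted p = 8.46e-06) and from 0.716 to 4.78 RPM in PM offspring (2.14, adjusted p = 3.48e-05). The Cd209 genes are similar in sequence, and how reads that match several of them were treated is not given in the sources used here. Nearest to Cd209a over the libraries were Lactb, a mitochondrial gene (0.226), and Tmem189 (0.237).

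Ccr7 encodes the receptor that guides mature dendritic cells and naive T cells to lymph nodes, and lies on the reverse strand of chromosome 11 (99144196 to 99155077). Its mean level per kilobase of exon was the highest of the 10 genes in Sham and PM, at 21.0 and 22.4 RPM per kb. Its level lay between 23.8 and 70.2 RPM in Sham (median 38.6) and between 25.9 and 76.3 in PM (median 42.7). Sham-OVA replicates had 42.1, 29.8, 42.9, 34.8 and 43.0 RPM, and PM-OVA replicates 39.6, 34.7, 43.3 and 41.4 RPM, all within the range of the saline libraries. On the log2 scale the fold change was -0.03 ± 0.24 in Sham (95% interval -0.55 to 0.48, adjusted p = 0.910) and -0.09 ± 0.23 in PM offspring (-0.59 to 0.41, adjusted p = 0.747). Its ligand genes Ccl19 and Ccl21a are listed at 0 in every library, although both are known to be transcribed in lung, so no level is given for them. Ackr4, the gene of a scavenger receptor for those ligands, fell by 2.22 and 2.03 on the log2 scale (adjusted p = 1.65e-05 and 0.00103).

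Per kilobase of exon, the order of mean levels in Sham was Ccr7 (21.0 RPM per kb), Ccl17 (6.66), Zbtb46 (5.86), Cd209a (5.65), Ccl22 (2.72), Clec9a (2.62), Itgae (1.35), Xcr1 (1.15), Batf3 (0.854) and Flt3 (0.742). In Sham-OVA it was Ccl17 (25.9), Ccr7 (19.5), Batf3 (18.9), Ccl22 (14.6), Cd209a (6.05), Zbtb46 (3.61), Flt3 (2.84), Xcr1 (2.45), Itgae (1.98) and Clec9a (1.15). Batf3 moved from the second lowest to the third highest place. Neighbours in the order were not tested against each other. The authors' mapping did not split reads across introns, so genes with many exons may be understated in this order. Itgae and Flt3 have 31 and 25 separate exon stretches, Ccr7 and Ccl17 have 3 each, and Xcr1, also low in the order, has 2. The size of this effect was not tested.

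Genes used as markers of each dendritic cell subset were counted to see whether the 10 genes moved with the rest of their programme. Of 10 other cDC1 genes, 3 rose and 5 fell in Sham offspring, and 3 rose and 3 fell in PM offspring. Naaa (log2 fold change 1.03, adjusted p = 1.01e-04) and Wdfy4, needed for cross-presentation (0.89, adjusted p = 9.63e-04), were the highest in Sham offspring. The pattern receptor genes Tlr11 (-1.57, adjusted p = 0.00228) and Tlr3 (-0.80, adjusted p = 3.06e-04) were the lowest. Tlr11 ranged from 0 to 2.36 RPM in Sham-OVA, so the size of its log2 value rests in part on a value of 0. The median of the cDC1 list was -0.37 in Sham and -0.29 in PM offspring, beside -0.48 and -0.43 for all genes, and the number that fell in Sham was 2 with median-of-ratios scaling. Among all genes tested, 20.6% rose and 47.5% fell in Sham and 20.1% rose and 45.2% fell in PM offspring. The cDC1 list held genes of both directions, and in Sham offspring its split was near these shares. Whether the transcripts of this list came from cDC1 or from other lung cells was not tested. Of the 10 tested cDC2 genes, 6 rose and 0 fell in each cohort, with medians of 1.40 and 1.14. Irf4 and Cd209d were the highest, and Cd7 and Sirpa the lowest at log2 fold changes of -0.05 and 0.14 in Sham offspring (adjusted p = 0.872 and 0.638). Several of these genes are also transcribed by macrophages and lymphocytes, and the study lists Epcam, a gene of this list, among epithelial genes. The summed level of the 12 macrophage and monocyte genes was 167 to 327 RPM in Sham and 1237 to 1768 RPM in Sham-OVA. It was 243 to 337 RPM in PM and 1006 to 1727 RPM in PM-OVA. The lowest macrophage and monocyte genes, Marco and Siglecf, are known for alveolar macrophages and fell in Sham offspring from means of 2.76 to 0.234 RPM and of 7.89 to 3.76 RPM (log2 fold changes -1.99 and -1.01, adjusted p = 2.42e-04 and 0.0183). The part of macrophages, lymphocytes and epithelial cells in the cDC2 and chemokine differences was not tested.

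Of 10 plasmacytoid dendritic cell genes, 4 rose and 2 fell in Sham offspring, and 3 rose and 3 fell in PM offspring. Ly6d (log2 fold change 3.28, adjusted p = 1.86e-06), which B cells share, and the interferon-induced Bst2 (1.54, adjusted p = 3.76e-06) were the highest in Sham offspring. Ccr9 (-1.23, adjusted p = 0.00972) and Runx2 (-0.83, adjusted p = 0.00956) were the lowest. Ccr9 ranged from 0 to 2.15 RPM in Sham-OVA, so the size of its fall rests in part on a value of 0. Of 15 genes of mature and migratory dendritic cells, 9 rose and 3 fell in Sham offspring, and 8 rose and 2 fell in PM offspring. Tnfrsf9, a costimulatory receptor gene, went from a mean of 1.82 to 46.6 RPM in Sham (log2 fold change 4.34, adjusted p = 3.29e-09), and Pdcd1lg2, which encodes PD-L2, from 0.395 to 13.7 RPM (3.97, adjusted p = 4.08e-08). In PM offspring they rose by 4.06 and 3.25 on the log2 scale (adjusted p = 2.30e-07 and 6.64e-07). Cacnb3 (-2.34, adjusted p = 0.00146) and Marcksl1 (-0.97, adjusted p = 0.00206) were the lowest in Sham offspring. Sham-OVA libraries ranged from 0 to 7.99 RPM for Cacnb3 and from 0.438 to 1.13 RPM for Marcksl1. The sizes of these log2 values thus rest in part on values at or near 0. The maturation list had a median of 0.47 in Sham offspring, with genes of both directions. Ccr7, which is used to mark the same state, had a log2 fold change of -0.03, or 0.45 relative to the all-gene median. Whether cells other than dendritic cells contributed to the differences of this list was not tested.

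Ccr7 is also a gene of naive T cells. Of the 12 T cell genes, 4 rose and 3 fell in Sham and 3 rose and 4 fell in PM offspring. Among all genes tested, 20.6% rose and 47.5% fell in Sham and 20.1% rose and 45.2% fell in PM offspring. With median-of-ratios scaling, 7 of the 12 T cell genes rose and 3 fell in Sham offspring. The lowest genes of the list in Sham offspring were the naive and memory T cell genes Tcf7 and Il7r. They fell by 1.38 and 1.09 on the log2 scale in Sham (adjusted p = 0.00111 and 0.00491) and by 1.31 and 1.15 in PM offspring (adjusted p = 0.00157 and 0.00867). The summed T cell list ranged from 223 to 445 RPM in Sham, 195 to 347 in PM, 199 to 416 in Sham-OVA and 222 to 334 in PM-OVA, so it overlapped between all groups. Whether naive T cells took part in the level of Ccr7 was not tested. B cells also carry Ccr7. Among B cell genes, Blk, which encodes a kinase of the B cell receptor pathway, rose by 0.96 on the log2 scale in Sham offspring (adjusted p = 0.0298) and had a log2 fold change of 0.19 in PM offspring (adjusted p = 0.609). Cr2, a complement receptor gene, had a log2 fold change of -0.59 in Sham (adjusted p = 0.199) and fell by 0.79 in PM offspring (adjusted p = 0.0485).

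Of 13 genes of dendritic cell growth and lineage, 4 rose and 3 fell in Sham offspring (8 and 2 with median-of-ratios scaling), and 3 rose and 2 fell in PM offspring. Spi1, which encodes the myeloid factor PU.1, rose from a mean of 38.1 to 139 RPM in Sham (log2 fold change 1.92, adjusted p = 5.09e-06), and Id2, a factor of cDC1 and innate lymphoid cells, rose by 0.85 (adjusted p = 7.32e-04). Zeb2, which opposes the cDC1 fate in progenitors and is transcribed in many other cells, fell from 163 to 45.7 RPM (log2 fold change -1.91, adjusted p = 8.53e-06). Csf2ra, the GM-CSF receptor gene, fell from a mean of 34.45 to 15.66 RPM (log2 fold change -1.86, adjusted p = 0.0374). Its Sham-OVA libraries ranged from 0 to 23.4 RPM (median 19.9), so the size of the log2 value rests in part on a library at 0. Among the 10 tested ligands, receptors and partners of the described genes, 2 rose and 4 fell in Sham offspring, and 1 rose and 3 fell in PM offspring. Syk, which signals below CLEC9A, rose by 0.40 on the log2 scale in Sham (adjusted p = 0.0475) and had a log2 fold change of 0.07 in PM offspring (adjusted p = 0.760). Of 8 lung tissue genes, 3 rose and 2 fell in each cohort, with Sftpc (1.19, adjusted p = 0.00147) and Sftpa1 (0.76, adjusted p = 0.00821) the highest and Scgb1a1 (-0.96, adjusted p = 0.0628) and Cldn18 (-0.93, adjusted p = 4.79e-04) the lowest in Sham offspring. With quantile normalisation 0 of these lung genes rose and 3 fell in Sham offspring, so the direction of this list depends on the scaling. The lung label was checked against them, and their summed level was at least 27420 RPM in every library.

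**Figure D4:**
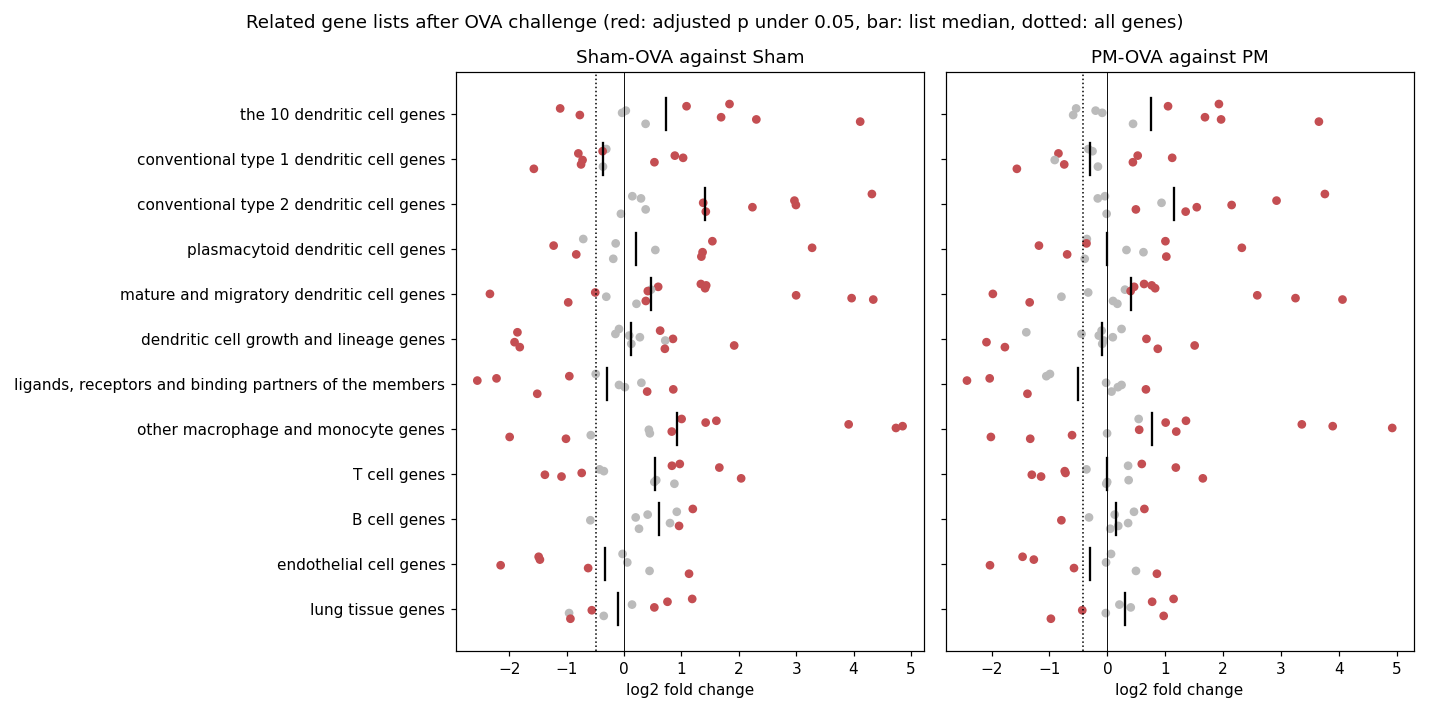
Log2 fold change of the genes (dots; red where the adjusted p was under 0.05) of the 10 dendritic cell genes and 11 related lists in Sham-OVA against Sham (left) and PM-OVA against PM (right), with list medians as bars and the all-gene median dotted. The cDC2 list has the highest median in both cohorts, 1.40 and 1.14, and the cDC1 list a median below 0 in both.

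Maternal exposure was compared next, without and with OVA challenge, to ask whether PM2.5 exposure of the dam shifted these genes or their response. None of the 10 genes was called in PM against Sham, in PM-OVA against Sham-OVA or for the interaction between maternal exposure and OVA (limma; 0% of all genes in each), and 0 of the 10 had an unadjusted p under 0.05 in any of these 3 comparisons. Over all genes, 731, 313 and 854 of the 16795 tested had an unadjusted p under 0.05 in these comparisons. Without the shallow libraries and Sham replicate 1, 516 of 16630 genes and 0 of the 10 were called for the interaction. That setting keeps only replicates 1 and 2 of PM-OVA. With shares of all genes this small, 0 of 10 does not set the 10 genes apart from the rest. In PM against Sham, Clec9a came closest, at means of 6.37 ± 0.691 RPM (SD, n = 7) in PM and 8.62 ± 2.52 RPM (SD, n = 7) in Sham, with a log2 difference of -0.36 (95% interval -0.72 to 0.00). The adjusted p of Clec9a was 0.898 with limma. Without Sham replicate 1, its difference was -0.51 (adjusted p = 0.867). Ccl17 differed by -0.13 (95% interval -0.72 to 0.46) and Ccl22 by 0.13 (-0.35 to 0.61). Over the 10 genes, the bounds farthest from 0 were -0.72 (Ccl17 and Clec9a) and 0.63 (Ccr7), and differences of that size are within the error.

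With OVA challenge, the comparison of PM-OVA with Sham-OVA was less precise. Batf3 had the smallest p of the 10 genes, at means of 25.5 ± 10.99 RPM (SD, n = 4) in PM-OVA and 30.2 ± 3.88 RPM (SD, n = 5) in Sham-OVA, with a log2 difference of -0.35 (95% interval -1.06 to 0.35). Without the shallow libraries, which had the highest Batf3 levels of their groups, it was -0.81 (adjusted p = 0.217 with limma). The Batf3 interaction without them and Sham replicate 1 was -0.76 (adjusted p = 0.226). Ccl22 differed by -0.21 (-0.81 to 0.39) and Ccl17 by -0.14 (-1.14 to 0.86). The interaction estimates were 0.09 for Flt3 (95% interval -0.54 to 0.71), -0.01 for Ccl17 (-1.07 to 1.05), -0.34 for Ccl22 (-1.11 to 0.42) and -0.46 for Batf3 (-1.31 to 0.38). These 4 intervals include no difference and also differences of more than 0.7 on the log2 scale in at least one direction. Clec9a and Zbtb46 were called in Sham but not in PM offspring, which does not by itself show that the cohorts differed. Their interaction terms were not called. Without the shallow libraries and Sham replicate 1, the interaction was 0.95 for Clec9a (adjusted p = 0.0631 with limma), short of the threshold. For Zbtb46 it was 0.25 there (adjusted p = 0.682).

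**Figure D5:**
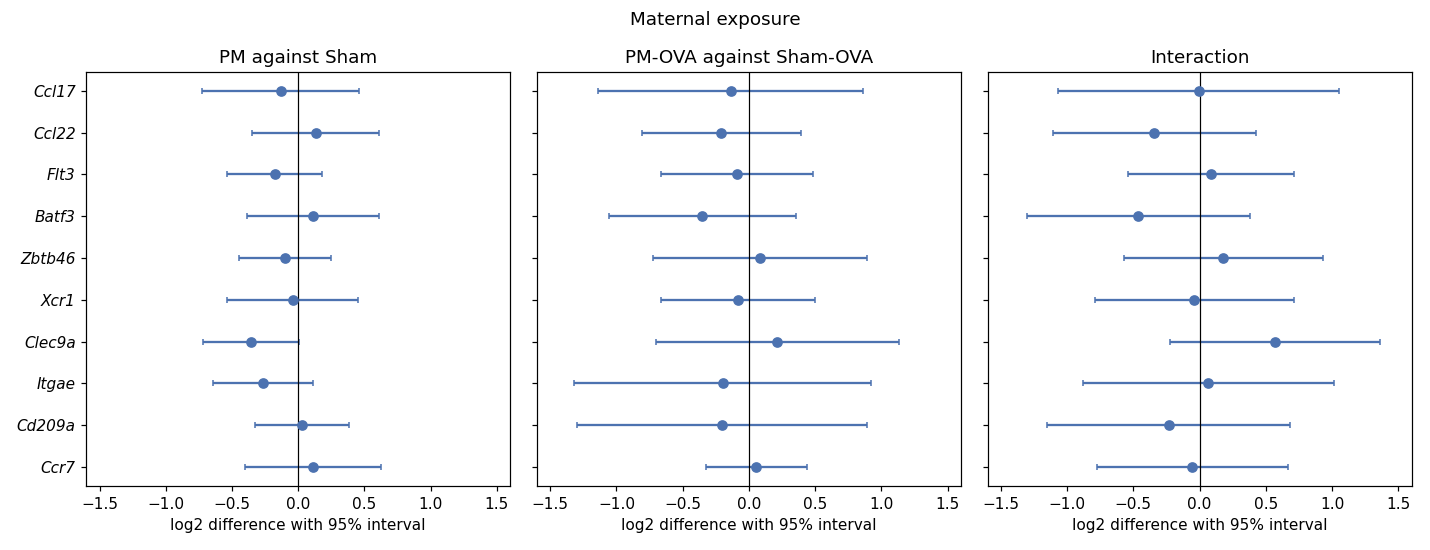
Log2 difference with 95% interval (horizontal axis) of the 10 genes in PM against Sham, in PM-OVA against Sham-OVA and for the interaction between maternal exposure and OVA. All 30 intervals include 0, that of Clec9a in PM against Sham only just, and the intervals of the comparisons that hold OVA libraries are the wider ones for most genes.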

How the data were processed

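RNA-Seq of 23 lungs in 4 groups was analysed. According to the methods, the authors used Trimmomatic on single-end reads, mapped them to GRCm38 (mm10 in the submitters' processing notes, which also name bcl2fastq) with Bowtie2, which does not split reads across introns, quantified them in SeqMonk and tested raw counts with DESeq2. The strand setting of the counting is not given in the sources used here. The deposited table is named after RPKM, but its values were whole multiples (tolerance 0.01) of the value of 1 read whatever the gene length, so they were taken as RPM as deposited by the authors, and reads were recovered. In the lowest library, 99.99% of the values above 0 came out whole.

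The 10 genes and the related lists were chosen with earlier results of these data known. Genes that reached 0.5 RPM in 4 or more libraries were tested on log2(RPM + 0.5) with limma 3.58.1 (R 4.3.3, trend, Benjamini-Hochberg adjustment over all genes tested). Fold changes on this scale understate those of low genes. The OVA and maternal comparisons used their own 2 groups and the interaction all 4. Replicates are animals. Levels per kilobase used the union of exons in GENCODE, and promoters came from RefSeq (GRCm38.p6). No protein sequence was used here. Genes were named by a rule: the 10 genes, the 2 highest and 2 lowest of each list in Sham offspring, the known ligands, receptors and partners, and the 2 genes closest to each of Ccl17, Ccl22, Xcr1 and Cd209a by the root mean square difference of centred log2 values. Cx3cl1 was added for its position. The result of 1 gene that the rule named is not reported here.

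The alternatives were pseudocounts of 0.1 and 1, a filter on the mean or none, median-of-ratios scaling, quantile normalisation, edgeR 4.0.16 and DESeq2 1.42.0 on the recovered reads, array weights, all 4 groups in 1 fit, a replicate block, the stricter threshold, and leaving out each library. Leaving out the 3 shallow libraries together with Sham replicate 1 was chosen after seeing the data. All tools were tested on simulated data. Python 3.11.15 with matplotlib 3.10.9 was used for the figures.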

Additional observations from a re-analysis of the deposited data

Results flagged for a closer look

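Among 48 groups of values of the 10 genes and their 2 ratios, 4 held a library that stood apart from the rest of its group by Dixon's test at the 95% level, and chance flags about 1 in 20 groups, here 2.4. Xcr1 was at 14.2 RPM in Sham-OVA replicate 1, with the other 4 libraries at 9.57 to 10.6 RPM. Batf3 was at 37.0 RPM in the shallow Sham-OVA replicate 3, compared with 27.6 to 29.6 RPM in the others. Ccr7 was at 76.3 RPM in PM replicate 4, with the other 6 PM libraries at 25.9 to 47.6 RPM. The same library had a ratio of Ccl22 to Ccl17 of 5.56, whereas the others ranged from 1.33 to 3.11. Leaving out any one of these libraries changed no call of Xcr1, Batf3, Ccr7, Ccl17 or Ccl22.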

How the results depend on the processing

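The number of the 10 genes called was within 1.5 times the reported number in 129 of 133 combinations of comparison and setting. The exceptions were the stricter threshold, with 1 called after OVA in Sham and 0 in PM offspring, and array weights, with 8 in PM offspring and 1 in the interaction (Cd209a, -1.01, adjusted p = 0.0334 with limma; 4616 of all genes were called under these weights, against 0 without them and 516 without the shallow libraries and Sham replicate 1); the cause was not tested. Leaving out 1 library gave 7 to 8 called after OVA in Sham offspring, 5 to 7 in PM offspring and 0 in the maternal comparisons and the interaction. Of 1330 log2 fold changes, 1295 stayed on their side of the threshold, with the same direction where called, 13 lost a call, 21 gained one, and 1 reversed: Cd209a in PM-OVA against PM, 0.56 without the shallow libraries, where 2 PM-OVA libraries remain (reported -0.20; -0.47 to 0.13 when 1 library is left out). That setting gave 8 calls in Sham and 7 in PM offspring. The labels number the replicates in each group, but same-numbered animals did not deviate together in every pair (correlations of -0.31 to 0.62), so the numbers were not taken to pair the animals. The numbers are those of the sample titles; library names number some OVA animals differently, and a pairing by those was not tested. With the replicate number as a block, 7 of the 10 genes were called after OVA in Sham offspring, 5 in PM offspring and 0 in the other comparisons. Depth limits Itgae, Cd209a and Clec9a most, with 6 to 30 reads in the 3 shallow libraries.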
